A study of Mus musculus with 16 samples.

Results

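The genes described here are 32 chaperones, folding enzymes, degradation factors and stress regulators of the endoplasmic reticulum (ER), taken from a fixed list of names out of 18193 genes measured. All 32 were measured. A gene was represented by the probe set, a group of array oligonucleotides, that was brightest over all arrays among those naming that gene alone. Pancreatic islets from 8 Co-Insm1 mutant and 8 control mice were compared on Affymetrix mouse arrays, 1 array per preparation. Both groups carried RIPcreER, a tamoxifen-inducible Cre recombinase under the rat insulin promoter, which is active in beta cells. The mutants were Insm1flox/lacZ, with 1 conditional and 1 lacZ allele of Insm1, which encodes a transcription factor found in endocrine cells, and the controls were Insm1flox/+. Tamoxifen (25 mg, released over 21 days) was given to all mice when 4 to 5 weeks old, and their islets were isolated at 8 to 12 weeks. The strain background mixed 129/ola, CBA/J and C57BL/6, and the controls were matched to the mutants by litter. The islets were whole, so cells without Cre activity contributed RNA. Those cells also differed in genotype, being Insm1flox/lacZ in mutants and Insm1flox/+ in controls. In such bulk samples, fewer cells of a type and less RNA per cell cannot be told apart.

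Secreted proteins such as insulin enter the ER unfolded. There BiP and other chaperones hold them, oxidases and protein disulfide isomerases form their disulfide bonds, and lectin chaperones hold their sugar chains. Misfolded chains are sent back to the cytosol and degraded. When unfolded protein accumulates, the sensors IRE1, PERK and ATF6 start the unfolded protein response, which raises chaperone and degradation genes through XBP1 and ATF6 and slows translation through PERK. Beta cells depend on this system because they make so much proinsulin.

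The ER stress response element, ERSE, is a promoter motif bound by ATF6 and XBP1 together with the CCAAT-binding factor NF-Y. Promoter sequences show how widely the genes share it. RefSeq windows on GRCm38.p6, from 250 bases before to 50 after the annotated gene start, were found for 28 of the 32 genes. They were searched on both strands for 4 patterns: ERSE (CCAAT, any 9 bases, CCACG), ERSE-II (ATTGG, any 1 base, CCACG), the core of the UPR element (TGACGTGG) and the core of the amino acid response element (TGATGCAA). ERSE was present in 10 of the 28 genes (35.7%), against 39 of all 32851 windows (0.119%). The stretches around the matches are shown because they are what these genes share. They read 5′ to 3′ on the gene's own strand, and capitals mark the fixed letters of ERSE, or of ERSE-II in Herpud1.
Hspa5 (chr2:34772010-34772058, plus strand): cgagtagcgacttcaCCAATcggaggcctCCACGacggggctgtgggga
Hsp90b1 (chr10:86705518-86705671, minus strand): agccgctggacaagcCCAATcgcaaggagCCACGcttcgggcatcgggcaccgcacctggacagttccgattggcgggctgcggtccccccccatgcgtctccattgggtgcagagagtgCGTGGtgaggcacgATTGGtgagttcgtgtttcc
Dnajc3 (chr14:118937812-118937860, plus strand): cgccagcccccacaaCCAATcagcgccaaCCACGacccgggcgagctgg
Creld2 (chr15:88819505-88819553, plus strand): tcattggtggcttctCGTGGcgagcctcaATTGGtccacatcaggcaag
Calr (chr8:84847060-84847108, minus strand): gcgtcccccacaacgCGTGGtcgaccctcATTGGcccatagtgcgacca
Canx (chr11:50325785-50325833, minus strand): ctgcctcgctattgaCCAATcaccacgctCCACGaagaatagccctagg
Pdia6 (chr12:17266476-17266524, plus strand): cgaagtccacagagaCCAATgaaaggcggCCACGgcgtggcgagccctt
Ero1b (chr13:12565667-12565715, plus strand): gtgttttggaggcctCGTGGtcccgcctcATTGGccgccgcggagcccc
Syvn1 (chr19:6046517-6046565, plus strand): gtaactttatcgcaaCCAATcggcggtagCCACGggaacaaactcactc
Derl3 (chr10:75893227-75893275, plus strand): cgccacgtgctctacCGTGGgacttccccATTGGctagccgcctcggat
Herpud1 (chr8:94386362-94386402, plus strand): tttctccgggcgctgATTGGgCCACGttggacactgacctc
On the strand opposite to the gene, ERSE reads as CGTGG, 9 bases and ATTGG, as in Creld2, Calr, Ero1b and Derl3. Hsp90b1, the ER member of the Hsp90 family, held 1 match on each strand. ERSE-II was found in Herpud1 and Dnajb11, against 12 of all windows (0.0365%). Herpud1 also held the amino acid response core, found in 0.895% of all windows. None of the 28 genes searched held the UPR element core, found in 0.676% of all windows. A match describes letters in this window only and is not evidence of binding.

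**Figure D1:**
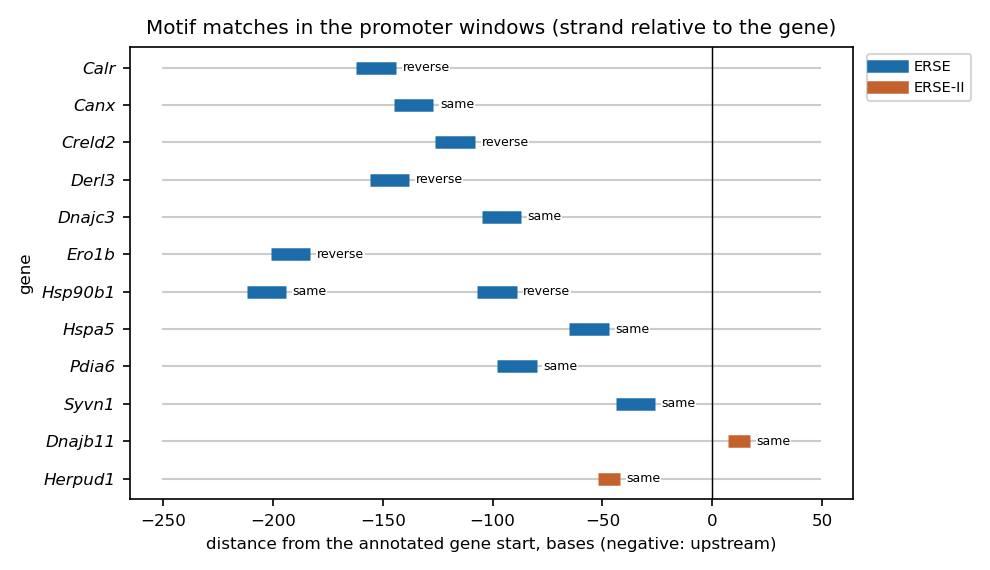
Positions of ERSE (blue) and ERSE-II (orange) matches in the promoter windows, in bases from the annotated gene start, with negative values upstream. The labels give the strand relative to the gene. All ERSE matches lie upstream of the start, and Hsp90b1 has 2.

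Most of this machinery did not pass the test between mutant and control islets. Only 3 of the 32 genes were lower in the mutant, and none was higher. They were Ero1b, an oxidase that drives disulfide formation (1.31-fold lower), and Derl2 and Edem1, which act in ER-associated degradation (1.39-fold and 1.31-fold lower). Calls were made with limma at an adjusted p under 0.05, after Benjamini-Hochberg adjustment over all 18193 genes. The 3 lower genes are 9.38% of the 32. Over all genes 8.76% were called, 4.66% lower and 4.1% higher, so the share called in either direction was close to that of all genes. At an unadjusted p under 0.05, 8 of the 32 were lower and 0 higher in limma, against 11.8% lower and 9.67% higher over all genes. The median difference of the 32 was -0.10 on the log2 scale, with 21 genes below 0 and 11 above, and that of all genes was -0.01.

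The arrays bounded most of these differences. The 95% interval lay within 1.5-fold in either direction for 27 of the 32 genes, and outside it for Sdf2l1, Pdia3, Edem2, Derl2 and Derl3. None of the 32 had a mean signal below the lowest array median, as 6504 of all genes did. The p-values measure the spread between these preparations.

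The replicate numbers were taken to pair mutant with control arrays because same-numbered arrays correlated, although no label states such pairs. Some calls depended on that pairing. With the replicate number as a block in limma, 8 of the 32 genes were lower and 1 was higher, against 9.71% lower and 7.88% higher over all genes. The lower genes were Ero1b, Derl2, Edem1, Dnajb9, Calr, Canx, Atf6 and Ern1, and the higher gene was Edem2. The mutant signal was lower in all 8 pairs for Edem1, Calr, Canx, Atf6, Ero1b and Derl2. These are 18.8% of the set, and 13.0% of all genes moved in one direction in all 8 pairs.

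**Figure D2:**
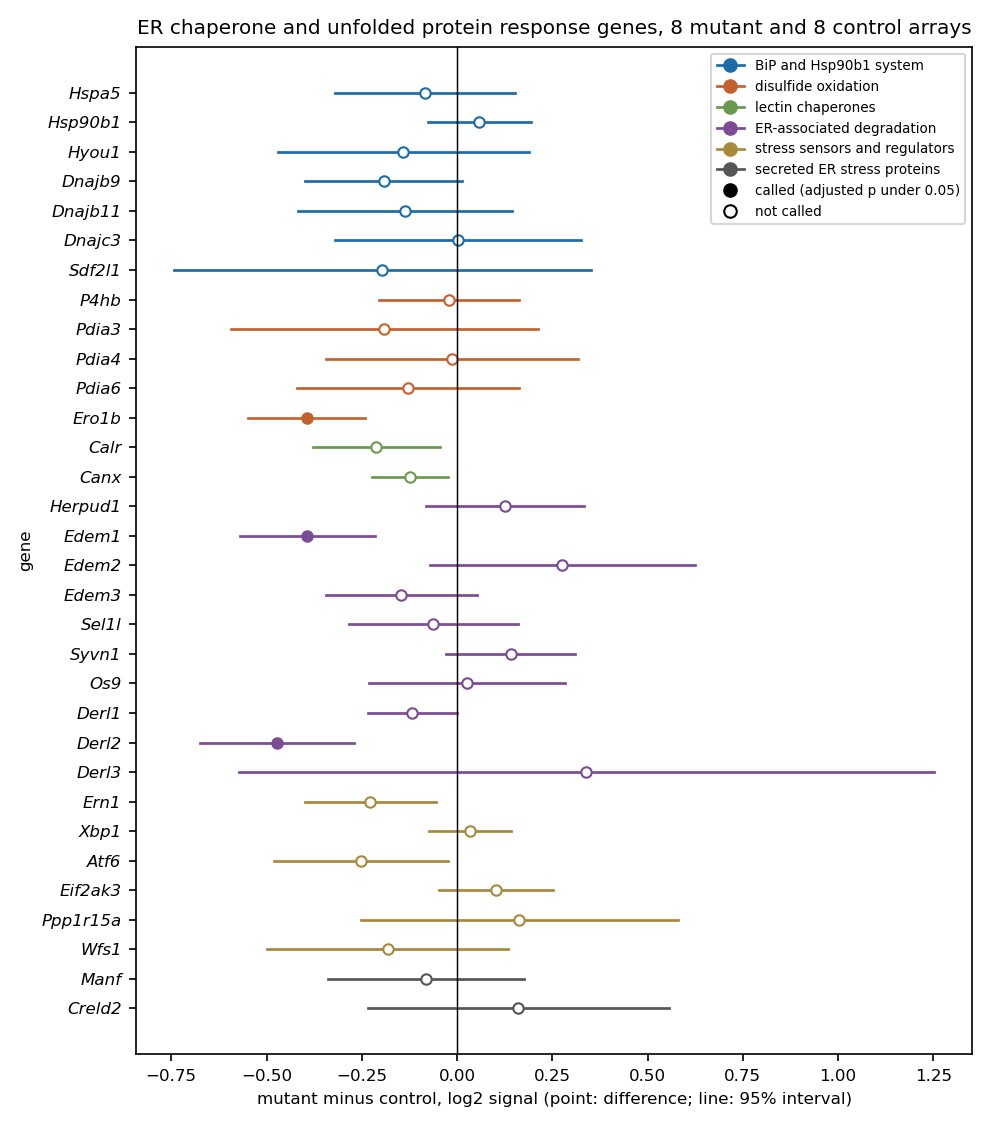
Difference in log2 signal, mutant minus control, for the 32 genes, coloured by role, with 95% intervals from limma (8 arrays a group). Filled points are the called genes Ero1b, Derl2 and Edem1, and Derl3 has the widest interval.

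Ero1b was the 1 gene of the 32 whose groups did not overlap (3.12%, against 2.29% of all genes). Its log2 signal in controls ran from 13.88 (median 14.03) to 14.14. In mutants it ran from 13.22 (median 13.63) to 13.82. Every mutant array was thus below every control array. The means were 14.02 ± 0.09 and 13.62 ± 0.19 (SD, n = 8 each), a difference of -0.39 with an SE of 0.07 and a limma adjusted p of 0.002. Its other probe sets gave -0.61 (adjusted p 0.14 over probe sets in limma) and -0.87, the latter called lower. The brightest probe set lay 1.57 below the highest signal on the arrays, where differences can be compressed.

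The other disulfide genes of the set were not called. P4hb encodes the classical protein disulfide isomerase, and Pdia3, Pdia4 and Pdia6 encode relatives of it. Their differences were -0.02 for P4hb, -0.01 for Pdia4, -0.13 for Pdia6 and -0.19 for Pdia3. The interval of P4hb ran from 0.868 to 1.12 as a ratio of mutant to control, and that of Pdia3 from 0.663 to 1.16. Pdia3 was therefore much less tightly bounded.

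Derl2 encodes a derlin, a membrane protein that helps move misfolded chains out of the ER. Its log2 signal ran from 10.99 (median 11.27) to 11.50 in controls and from 10.38 (median 10.79) to 11.10 in mutants. The groups overlapped at the edges, and the mutant was lower in all 8 pairs. The means were 11.24 ± 0.15 and 10.77 ± 0.24 (SD, n = 8 each), a difference of -0.47 (SE 0.10, limma adjusted p 0.004). A dimmer probe set gave -0.38, with a limma adjusted p of 0.069.

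Edem1 encodes a mannosidase-like protein that marks misfolded glycoproteins for degradation. Its log2 signal ran from 10.28 (median 10.57) to 10.83 in controls and from 9.87 (median 10.21) to 10.40 in mutants. The groups overlapped, although the mutant was lower in all 8 pairs, by 0.02 in the pair of smallest difference. The difference of means was -0.39 (SE 0.08, limma adjusted p 0.006). The other probe set gave -0.34 with an SE of 0.24 and was not called, and averaging both probe sets ended the call (difference -0.37, limma adjusted p 0.14).

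The related Edem2 and Edem3, which act in the same pathway, were not called without the block. Edem2 was 0.28 higher in the mutant, with a limma adjusted p of 0.370 that became 0.033 with the replicate block. Edem3 differed by -0.15 and was not called in either fit. Whether the Edem genes differ from each other was not tested.

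The remaining degradation genes were not called. Sel1l and Syvn1 encode the core of the HRD1 ubiquitin ligase, Os9 a lectin that feeds it, Herpud1 a scaffold of it, and Derl1 and Derl3 other derlins. The differences were -0.06 for Sel1l, 0.14 for Syvn1, 0.03 for Os9, 0.13 for Herpud1 and -0.12 for Derl1. Derl3 had the largest value, 0.34, and the largest SE, 0.43, with an interval of the ratio from 0.672 to 2.38. Across the 10 degradation genes, 2 were lower, 5 values were above 0 and the median was -0.02.

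BiP itself, encoded by Hspa5, did not pass the test. Its signal ran from 13.03 (median 13.13) to 13.45 in controls and from 12.69 (median 13.03) to 13.52 in mutants. All control arrays lay inside the range of the mutants. The difference was -0.08 (limma adjusted p 0.738), and the 95% interval of the ratio of mutant to control ran from 0.801 to 1.11. Its sign was not stable: without pairs 1 to 3 the difference was 0.05. Hsp90b1 differed by 0.06, with an interval of the ratio from 0.948 to 1.14.

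Hyou1, an exchange factor of BiP, differed by -0.14 and Sdf2l1, which works with ER J-proteins, by -0.20. Among the J-domain partners of BiP, Dnajb11 differed by -0.14 and Dnajc3 by 0.00. Dnajb9, the J-protein ERdj4, differed by -0.19, with a limma adjusted p of 0.274 that became 0.029 with the replicate block. Of the 7 genes of this system, none was called without the block, and the median was -0.14.

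The lectin chaperones calreticulin and calnexin, encoded by Calr and Canx, hold newly made glycoproteins during folding. Calr ran from 13.49 (median 13.65) to 13.78 in controls and from 13.12 (median 13.47) to 13.76 in mutants. Canx ran from 12.91 (median 12.98) to 13.10 and from 12.72 (median 12.87) to 13.02. Both genes overlapped between the groups and were lower in the mutant in all 8 pairs, although Calr was 13.76 on both arrays of pair 8. The differences were -0.21 for Calr and -0.12 for Canx. In limma neither was called without the block (adjusted p 0.114 and 0.130), and both were lower with it (0.014 and 0.032). Another Calr probe set was lower without the block (limma adjusted p 0.032 over probe sets), and the remaining one was not called (0.057). The one used here was called in 1 of 16 fits with an array left out, without mutant replicate 8 (limma adjusted p 0.0307 to 0.193 over these fits).

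**Figure D3:**
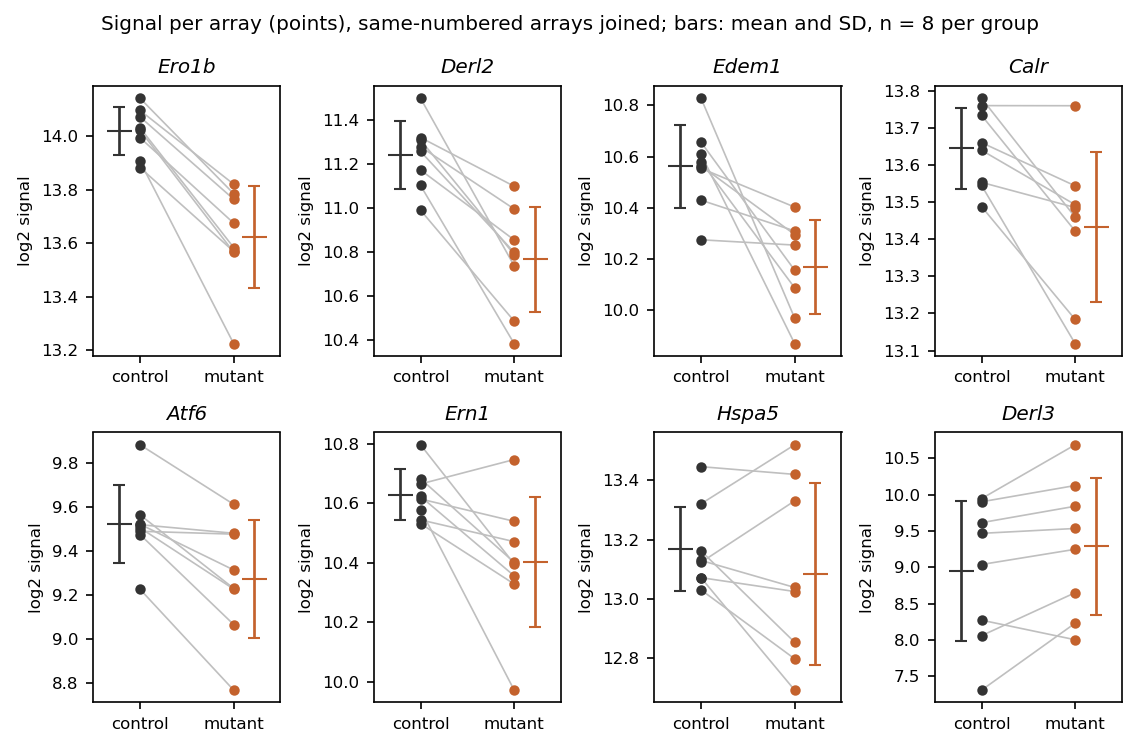
Log2 signal on each array for 8 genes of the set, with controls and mutants side by side. Lines join same-numbered arrays, and bars are means and SD (n = 8). The Ero1b arrays do not overlap between groups, those of Hspa5 do, and Derl3 spreads widely in both.

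None of the sensors passed the test without the block. Atf6 ran from 9.23 (median 9.51) to 9.88 in controls and from 8.77 (median 9.27) to 9.61 in mutants, overlapping but lower in all 8 pairs. The difference was -0.25, with a limma adjusted p of 0.180, or 0.010 with the replicate block. The other Atf6 probe sets gave -0.11 and -0.10, and neither was called. Ern1, which encodes IRE1, ran from 10.53 (median 10.62) to 10.80 in controls and from 9.97 (median 10.40) to 10.75 in mutants. Ern1 thus reached lower in the mutants, while the highest arrays of both groups were close. Its difference was -0.23, with a limma adjusted p of 0.099, or 0.041 with the block. Leaving out 1 array called it in 1 of 16 fits, without mutant replicate 7 (limma adjusted p 0.0261 to 0.170 over these fits). Its other probe sets gave 0.08, -0.03, -0.30 and -0.03, and none was called. Eif2ak3, which encodes PERK, differed by 0.10 and was not called in either fit.

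Xbp1, the transcription factor that IRE1 activates by splicing its RNA, was among the most tightly bounded genes. It ran from 13.34 (median 13.45) to 13.60 in controls and from 13.29 (median 13.51) to 13.63 in mutants. The groups overlapped throughout, the difference was 0.03, and the interval of the ratio ran from 0.95 to 1.10. These values are total signals. The place of its probes relative to the spliced part of the RNA is not stated in the labels. Ppp1r15a, a phosphatase subunit that restores translation, differed by 0.16. Wfs1, an ER membrane protein whose loss causes Wolfram syndrome, differed by -0.18. Of the secreted ER stress proteins, Manf differed by -0.08 and Creld2 by 0.16, and neither was called.

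Of the 10 genes with an ERSE match, 1 was lower (Ero1b) and the median difference was -0.04. Of the 18 matched genes without one, 2 were lower and the median was -0.10. Over all genes 4.66% were lower. With the replicate block, 3 of the 10 and 4 of the 18 were lower, against 9.71% of all genes. The range with ERSE ran from -0.39 for Ero1b to 0.34 for Derl3.

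The 8 pairs differed in how the set moved. In pair 2, 29 of the 32 genes were lower in the mutant, with a median of -0.32. In pair 1, 27 were lower (median -0.23), and in pair 3, 26 (median -0.12). In pair 6, 24 were lower (median -0.13), and in pair 7, 18 (median -0.09). In pairs 4, 5 and 8 the counts were 13, 15 and 10, with a median of 0.07 in each. Thus most of the genes were lower in 5 pairs and fewer than 16 of 32 in the other 3. The mutant minus control difference of the immune marker mean was more than 1 in each of pairs 1 to 3, reaching 1.84 in pair 3, and lay between -0.43 and 0.45 in the other pairs, at -0.43 in pair 6 and 0.03 in pair 7. That of the acinar marker mean was below 0 in every pair, from -0.30 in pair 1 to -3.02 in pair 6. Without pairs 1 to 3, or with the immune mean as a covariate, the number of the 32 genes called lower was again 3. Over all genes, 828 were called in either direction without pairs 1 to 3, which left fewer arrays. With the immune mean 1598 of all genes were called in either direction, against 1594 without it. The part of immune cells in the differences between pairs was not tested.

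**Figure D4:**
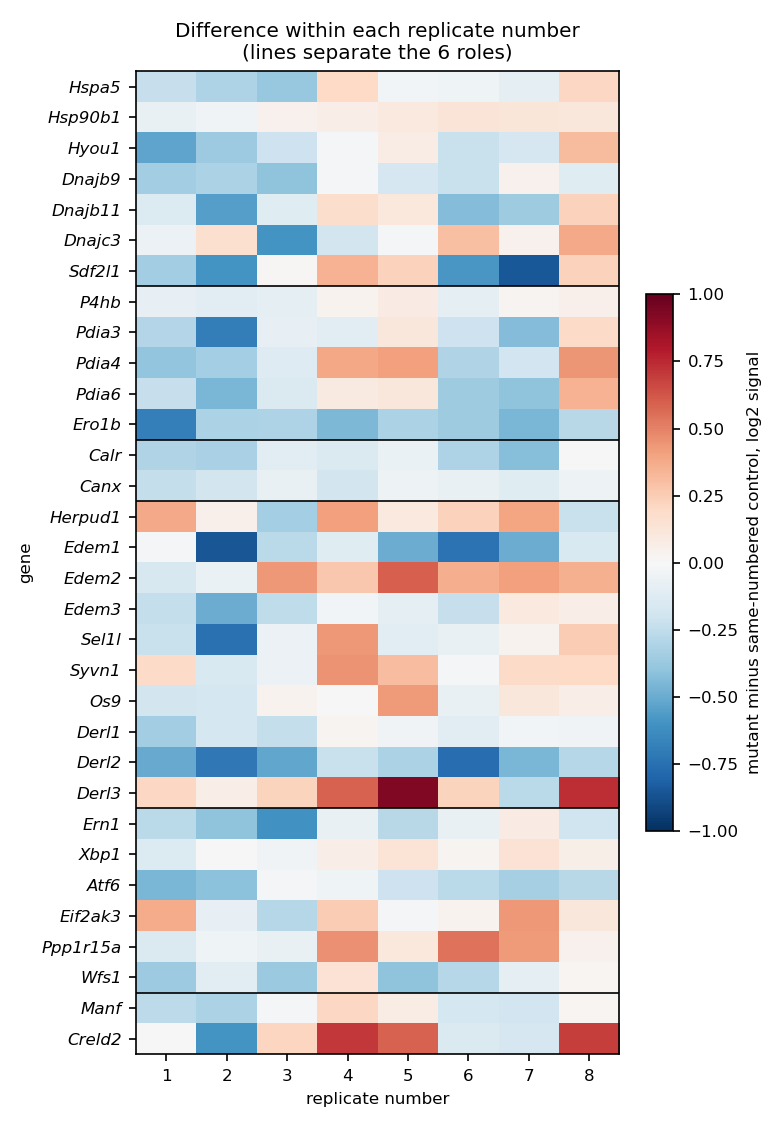
Mutant minus control log2 difference of each of the 32 genes in each of the 8 pairs of same-numbered arrays (columns), blue where the mutant is lower and red where it is higher. Most genes are lower in pairs 1, 2, 3, 6 and 7, and 13, 15 and 10 of 32 are lower in pairs 4, 5 and 8.

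Arrays of the same number also shared their level for many of these genes, though not for all. The within-group SD of the 32 genes had a median of 0.226, against 0.156 for all genes, and ran from 0.0828 to 0.956 for Derl3. Derl3 in controls 1 to 8 was 9.04, 9.47, 9.90, 8.06, 7.31, 9.62, 8.27 and 9.95. In mutants 1 to 8 it was 9.25, 9.54, 10.13, 8.65, 8.23, 9.84, 8.00 and 10.69. Arrays 2, 3, 6 and 8 were the 4 brightest in both groups, as they were for Hyou1 and Os9. Over the 32 genes, the 4 brightest arrays of each group shared all 4 numbers for 4 genes, 3 numbers for 16 and 2 for 10. They shared 1 for Eif2ak3 and 0 for Edem1, whose SE was larger with the block. Numbers drawn at random would share 2 on average. The counts over all genes were not computed. The SE without the block was 3.77 times that with it for Derl3. That ratio had a median of 1.58 over the 32 genes and 1.21 over all genes. Derl3 was higher in the mutant in 7 of 8 pairs, with a limma adjusted p of 0.066 with the block.

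Other genes of protein folding and secretion, from lists of related pathways, are read against the 4.66% of all genes called lower, or 9.71% with the replicate block. Of 15 further disulfide and thioredoxin-like genes, 1 was lower: Ero1a, the other Ero1 oxidase, by 0.44 on the log2 scale (SE 0.09, limma adjusted p 0.0028). Both Ero1 genes were thus lower in the mutant, and the other genes of this list were not called. With the block, 4 of these 15 were lower and 2 higher. Of 9 genes in a list of N-glycan trimming, the folding cycle and cargo export, 3 were lower and none higher, with a median of -0.24. With the block 4 of them were lower. Among the 3, only Uggt1, which returns unfolded glycoproteins to calnexin, acts in the folding cycle, with a difference of -0.34. The others were Lman1 and Mcfd2, partners in cargo export, with -0.51 and -0.38. Of 22 COPII and KDEL receptor genes, 2 were lower, Mia3 (-0.32) and Sar1b (-0.26), and with the block 4. With the acinar mean as a covariate, the disulfide, N-glycan and COPII lists had 3, 5 and 5 genes lower, against 6.97% of all genes.

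Of 20 further degradation genes, Ubac2 (0.30) and Rnf139 (0.19) were higher and Ube2j1 (-0.22) was lower, and with the block 3 were higher and 3 lower. Of 22 other regulators of the response, Txnip, which binds thioredoxin, was higher by 0.91, and Trib3, a pseudokinase induced under stress, had a difference of -0.41. Vldlr, a lipoprotein receptor, had a difference of -1.32. Atf4, the factor translated when PERK is active, differed by -0.08 and was not called. With the block, 3 of these regulators were higher and 5 lower. None of 23 translocon and signal peptidase genes, 9 oligosaccharyltransferase genes or 16 cytosolic and mitochondrial heat shock genes was called in limma without the block. With it, 6, 1 and 3 of them were lower, against 9.71% of all genes. With the acinar mean in the fit instead, 10, 3 and 0 were lower, against 6.97% of all genes. At an unadjusted p under 0.05 in limma without the block, 5, 0 and 1 of them were lower and 0 were higher. Over all genes these shares were 11.8% lower and 9.67% higher.

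**Figure D5:**
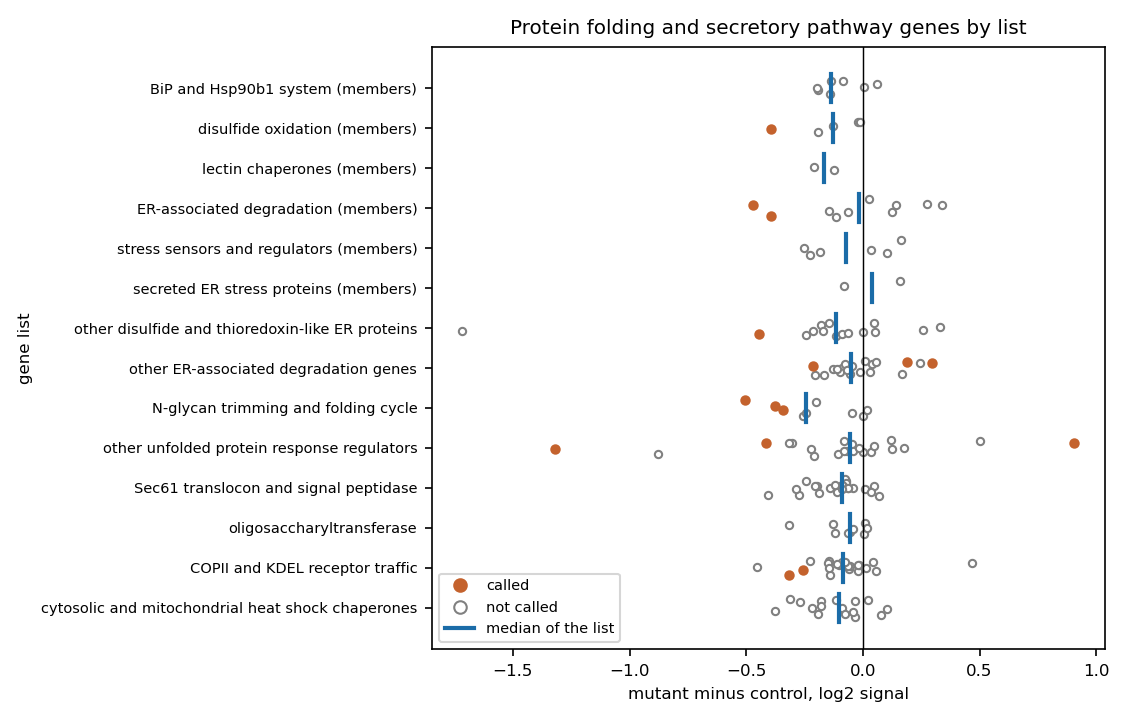
Mutant minus control log2 difference of each measured gene by list, with called genes filled and the list median as a bar. Calls are those without the replicate block. The list of N-glycan trimming and the folding cycle, which also holds Lman1 and Mcfd2 of cargo export, has the lowest median, -0.24.

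The islet label was borne out by its defining markers, and other cells were present too. Beta cell markers averaged 12.63 ± 0.08 in controls and 12.08 ± 0.11 in mutants (SD, n = 8 each), with 7 of 9 genes lower, and 3 of 5 alpha cell markers were higher. Ins2 and Iapp, near the top of the array scale, were not called. Acinar markers, from enzyme-secreting cells rich in ER, averaged 11.99 ± 0.91 in controls (10.96 to 13.35) and 10.58 ± 1.56 in mutants (8.23 to 12.86), lower in all 8 pairs. Of these 25 genes 1, Bhlha15, was called lower, or 22 with the replicate block, and 1 had a mean below the lowest array median. Immune markers averaged 7.40 ± 0.47 (7.05 to 8.49) and 7.87 ± 0.95 (7.08 to 9.49), with 1 of 22 higher, C1qa. Plasma cell markers averaged 6.84 ± 0.58 in controls and 7.45 ± 1.20 in mutants, higher in 6 of 8 pairs, although the 1 of 6 genes called was lower. Duct markers averaged 7.58 ± 0.37 and 7.10 ± 0.32, lower in all 8 pairs, with 1 of 6 genes lower, or 2 with the block. Stromal markers averaged 8.78 ± 0.20 and 9.06 ± 0.34, higher in 7 of 8 pairs, with Dcn and Col1a2 higher and Acta2 lower, or 4 of 8 genes higher and 2 lower with the block. Endothelial markers averaged 9.10 ± 0.12 and 9.09 ± 0.20. Delta and PP markers averaged 12.75 ± 0.16 and 13.00 ± 0.12, with 1 of 5 genes higher, or 3 with the block. The part of the duct and stromal signal in the values of the 32 genes was not tested. The acinar and immune means were also entered in the fit. With the acinar mean as a covariate 10 of the 32 were lower, and 0 higher, against 6.97% and 4.86% of all genes. These were Ero1b, Derl2, Edem1, Dnajb9, Manf, Calr, Canx, Atf6, Wfs1 and Derl1. With the block and the acinar mean together 1 was called, Ero1b, lower, against 3.35% of all genes (1.33% lower and 2.02% higher). With the immune mean added as well, 0 of the 32 were called in limma, against 0.0495% of all genes (0.011% lower and 0.0385% higher). At an unadjusted p under 0.05 in limma, that fit gave 2 of the 32 lower and 1 higher. The share of all genes at that threshold was not computed for this fit.

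A measure of RNA quality also differed between the groups. It was the 3′ minus 5′ signal of control probe sets, averaged over Gapdh and actin. Its mean was 0.44 ± 0.09 in controls and 0.36 ± 0.06 in mutants (SD, n = 8 each), lower in the mutant in all 8 pairs. The transcripts had opposite signs. Gapdh gave -0.19 ± 0.10 in controls and -0.26 ± 0.07 in mutants, and actin 1.07 ± 0.13 and 0.97 ± 0.08. The gap was thus larger in size in the mutant for Gapdh and smaller for actin. With the averaged 3′ minus 5′ difference beside the block, 1 of the 32 genes was lower, Ero1b, and 0 higher, against 0.748% and 0.561% of all genes. Insm1 itself was 11.26 ± 0.23 in controls and 11.02 ± 0.22 in mutants, lower in 5 of 8 pairs, and was not called (difference -0.25, limma adjusted p 0.182). Its difference turned to 0.04 without pairs 1 to 3, to 0.03 with the block and the RNA quality measure, and to 0.23 with the block and both marker means. Whether its probes lie in the deleted part is not stated in the labels.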

How the data were processed

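Per the labels' protocols, RNA was prepared with Trizol and labelled from 150 ng with a 3′ IVT kit. The authors deposited 1 log2 signal per probe set and array. How these were background-corrected and normalised is not given in the sources used here, and no scaling was added. Array medians were 6.29 to 6.35, and correlations between arrays 0.971 to 0.994. Precision is limited by the 16 arrays.

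Of 45101 probe sets, 64 controls, 932 naming several genes and 9160 naming none were left out. The brightest of the remaining 34945 stood for each gene, and symbols were updated through RefSeq gene identifiers for 34741. Of the 32 genes, 23 had further probe sets.

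The genotype comparison used R 4.3.3 with limma 3.58.1 (lmFit, eBayes with a trend, two-sided, Benjamini-Hochberg adjustment over all genes). The genes and lists were chosen with earlier results of these data known. The genes named are all 32, up to 4 called genes of each pathway list by size of difference, and Insm1. The 2 brightest genes of each marker list were also chosen, but of these only Ins2, Iapp and C1qa are printed. Bhlha15, Dcn, Col1a2, Acta2 and Atf4 were named after their values were seen. Of 279 list entries, 262 were measured.

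Deviations from the group means correlated between same-numbered arrays in all 8 pairs (0.237 to 0.735), so the numbers were taken as pairs, and a fit with the replicate number as a block is printed wherever it altered a call or a count of calls. The alternatives were other scalings, filters, probe set rules and variance models, the block, marker and RNA quality covariates, and leaving out arrays. On simulated data for this comparison over 18193 genes, 86 of 100 genes changed 1.5-fold and 97 of 100 changed 3-fold were recovered, and 7.58% of calls were false.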

Additional observations from a re-analysis of the deposited data

Results flagged for a closer look

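In 7 of 84 groups of 8 arrays examined, 1 array stood apart from the others of its group by Dixon's criterion. Chance gives this in about 1 in 20 groups. Control replicate 1 was the lowest control for Dnajb9 (12.94, next 13.21), Dnajb11 (10.13, next 10.47), Pdia4 (10.52, next 10.82) and Edem3 (9.78, next 10.04). The same array had the highest control mean of the immune markers, 8.49 against 7.55 for the next. With the immune mean as a covariate, the difference between mutant and control was -0.09 for Dnajb9, -0.02 for Dnajb11, 0.14 for Pdia4 and -0.06 for Edem3, against -0.19, -0.14, -0.01 and -0.15 without it, and none of these was called. Mutant replicate 8 was the highest mutant for Dnajc3, 13.37 against 12.64 for the next. Mutant replicate 1 was the lowest mutant for Ero1b, 13.22 against 13.57 for the next, and Ero1b stayed lower in the mutant when that array was left out.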

How the results depend on the processing

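Of the values of the 32 genes under 15 other settings, 459 of 480 kept their side of the threshold, as did 510 of 512 with 1 array left out. The sign changed in 43 of the 480 and 23 of the 512, over 18 genes, in each case with no call on either side. Leaving out each array in turn gave 1324 to 1645 genes called, 3 to 4 of the 32 lower and 0 higher in limma, against 1594, 3 and 0. The replicate block called 3200 genes and, of the 32, 8 lower and 1 higher, with same-numbered arrays as pairs. The acinar mean as a covariate gave 10 lower. The block with the acinar mean gave 609 genes and 1 lower. The block with the acinar and immune means gave 9 genes and 0 lower. The block with the 3′ minus 5′ difference gave 238 genes and 1 lower. Leaving out pairs 1 to 3 gave 828 genes from fewer arrays. The cause of the other changes was not tested. Derl2 lost its call with the block and the acinar mean (difference -0.41, limma adjusted p 0.124), with the immune mean added (-0.22, 0.939) and with the block and the 3′ minus 5′ difference (-0.32, 0.380). Edem1 lost it under the same settings (-0.15, -0.03 and -0.19, with adjusted p 0.726, 0.998 and 0.793). Ero1b lost it only with the block and both marker means (difference -0.56, limma adjusted p 0.373). The SE of Ero1b was 0.05 with the block alone and 0.16 with the block and both marker means. For Derl2 these SEs were 0.06 and 0.21, and for Edem1 0.09 and 0.29. Signals near the top of the array scale limit what Ero1b, Calr and Xbp1 can show.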
